A study of Xenopus laevis with 3 samples.

Results

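Endothelial cells, which line blood and lymph vessels, were picked out of a single-cell RNA data set of the juvenile *Xenopus laevis* ovary by their own transcripts. A cell was taken as endothelial-gated when it held at least 2 UMIs (unique molecular identifiers, each standing for 1 captured RNA molecule) of *cdh5* and *kdr* together and 0 UMIs of the leukocyte gene *ptprc*. It also had to hold 100 to 8000 detected genes, at most 1.5% of its UMIs from the 13 mitochondrial genes, and under 8 UMIs of the germ cell genes *ddx4* and *dazl* per 10000. The rule found 142 cells among 19253 barcodes, 97 in ovary 1, 17 in ovary 2 and 28 in ovary 3. They were 142 of 17147 cells inside the gene and mitochondrial limits and 142 of 8730 somatic cells, where somatic means under the germ cell limit. Because measured values chose the cells, *cdh5*, *kdr*, *ptprc*, *ddx4* and *dazl* are described below and were not tested.

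The study followed early female germline development and made 1 library from each of 3 individual ovaries of untreated wild-type juveniles at Nieuwkoop-Faber stages 62 to 66, the close of metamorphosis. About 10000 dissociated cells were loaded per library. The labels give germline cells as the cell type and describe no sort, and vessels were not what the libraries were made for. All groups compared here come from the same 3 ovaries and differ only in the transcripts used to gate them, so n was 3 ovaries in each comparison.

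Endothelial cells hold to one another through VE-cadherin, the product of *cdh5*, and grow toward VEGF through the receptor encoded by *kdr*. Sprouting vessels are led by tip cells, which send Delta-Notch signals that keep their neighbors from leading. Arteries, veins and lymphatic vessels each keep a characteristic set of receptors and transcription factors. In the vertebrate ovary, vessels run through the stroma and around follicles and carry in hormones and yolk precursors. *X. laevis* is allotetraploid, so most genes have a copy on the long (.L) and on the short (.S) chromosome of each pair, called homeologs.

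The libraries held 34060121 to 54585110 UMIs in 5987 to 6964 barcodes. Ovary 1 gave most of the somatic cells, 4605, against 1028 in ovary 2 and 3097 in ovary 3, and so 97 of the 142 endothelial-gated cells. The summed endothelial counts were 531337, 73811 and 91818 UMIs in ovaries 1, 2 and 3, and every value from ovary 2 rests on 17 cells. Median depth per endothelial-gated cell was 4303, 3622 and 2752.5 UMIs, against 2523.5, 2552 and 1568 UMIs in the other somatic cells with 0 UMIs of *cdh5* and *kdr*. Pairs of libraries shared 6 to 16 cell barcodes, and at most 1 endothelial-gated cell per pair carried a shared one.

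Endothelial-gated cells made up 2.11% of the somatic cells in ovary 1 (97 of 4605, exact binomial 95% interval 1.71 to 2.56%). The share was 1.65% in ovary 2 (17 of 1028, 0.966 to 2.63%). It was 0.904% in ovary 3 (28 of 3097, 0.602 to 1.30%). Cells under 1500 UMIs were then left out, which kept 3801, 764 and 1693 somatic cells, and the rest were thinned to 1500 UMIs. The shares were then 0.921%, 1.05% and 0.827%, with overlapping intervals. No difference between the ovaries was detectable in these thinned cells.

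The 2-UMI limit was compared with genes that the rule did not use. A panel of 6 endothelial genes served for this: *pecam1*, *esam*, *cldn5* and *mcam*, which encode adhesion and junction proteins, and *clec14a* and *mmrn2*, a lectin-like receptor and its matrix partner. At least 2 panel UMIs were present in 76 of 89 somatic cells with 3 or more UMIs of *cdh5* and *kdr* (85.4%). Just inside the limit, 44 of 53 cells with 2 UMIs had them (83.0%), and just outside it, 40 of 113 cells with 1 UMI (35.4%). Among cells with 0 UMIs of *cdh5* and *kdr* the panel was found in 161 of 8475 (1.90%). It was found in 2 of 168 leukocyte-gated cells (1.19%), which held at least 2 *ptprc* UMIs and also 0 of *cdh5* and *kdr*. The panel level was 25.2, 33.9 and 35.8 UMIs per 10000 in endothelial-gated cells of ovaries 1, 2 and 3, against 0.484, 0.390 and 0.425 in the other somatic cells. The panel thus ran with *cdh5* and *kdr* in these cells, and the rule left some cells with panel RNA outside the gate. The panel genes come from a list chosen with earlier results of these data known, so they are no independent check of the label.

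**Figure D1:**
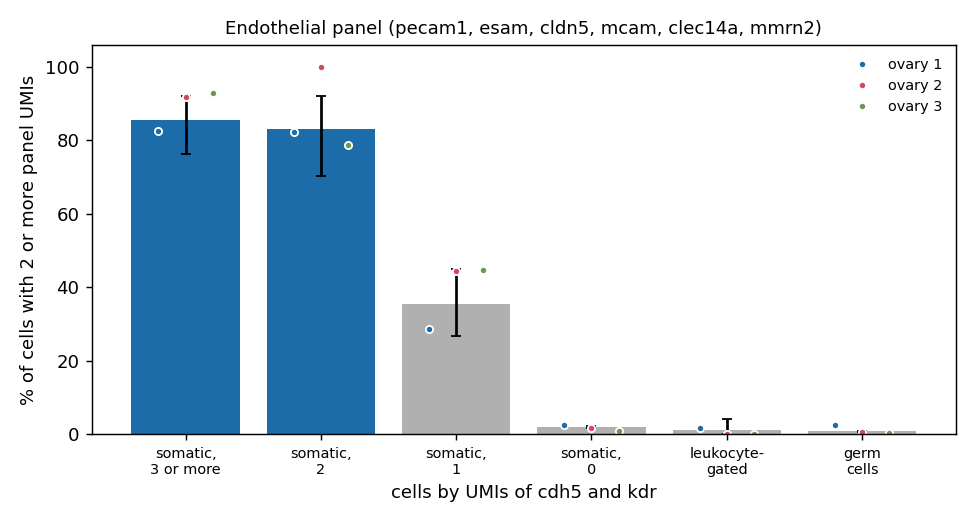
Share of cells (y axis, %) with 2 or more UMIs of the 6-gene endothelial panel, for somatic cells grouped by their UMIs of *cdh5* and *kdr* (x axis), leukocyte-gated cells and germ cells. Bars are the 3 ovaries together with exact binomial 95% intervals and dots are single ovaries; cells with 2 UMIs stand at 83.0%, close to the 85.4% of cells with more, and cells with 1 UMI at 35.4%.

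The genes of the rule were not captured evenly. Both *cdh5* and *kdr* were seen in 66 of the 142 cells, *cdh5* alone in 72 and *kdr* alone in 4. In the endothelial-gated cells of ovaries 1, 2 and 3, *cdh5.S* had 181, 44 and 60 UMIs and *cdh5.L* had 129, 15 and 26. The *kdr* copies were sparser, with 63, 8 and 8 UMIs of *kdr.L* and 16, 5 and 4 of *kdr.S*. *cdh5* therefore did most of the selecting. The related receptor gene *kdrl*, which the rule did not use and which was looked up after its values were seen, had 160, 11 and 11 UMIs of *kdrl.L* in endothelial-gated cells, against 35, 3 and 5 in the other somatic cells.

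To ask which transcripts set endothelial-gated cells apart, UMIs were summed per ovary and gate and the 3 endothelial sums were compared with the 3 sums of the other somatic cells by edgeR's quasi-likelihood test, two-sided, with Benjamini-Hochberg adjustment over all genes tested. Of 14147 genes tested, 861 were higher (6.09%) and 784 lower (5.54%) in endothelial-gated cells at an adjusted p under 0.05. Ovary 1, with the deepest endothelial sum, weighed heavily, and without it 301 were higher and 139 lower. With the ovary as a block, 1108 were higher and 1381 lower. Over all genes tested, the fitted log2 values had a median of -0.28. The shares of 6.09% higher and 5.54% lower are the background for each list count against the other somatic cells below. Levels below are UMIs per 10000 UMIs of a sum, as mean ± SD over the 3 ovaries, and fold changes are fitted log2 values ± SE.

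**Figure D2:**
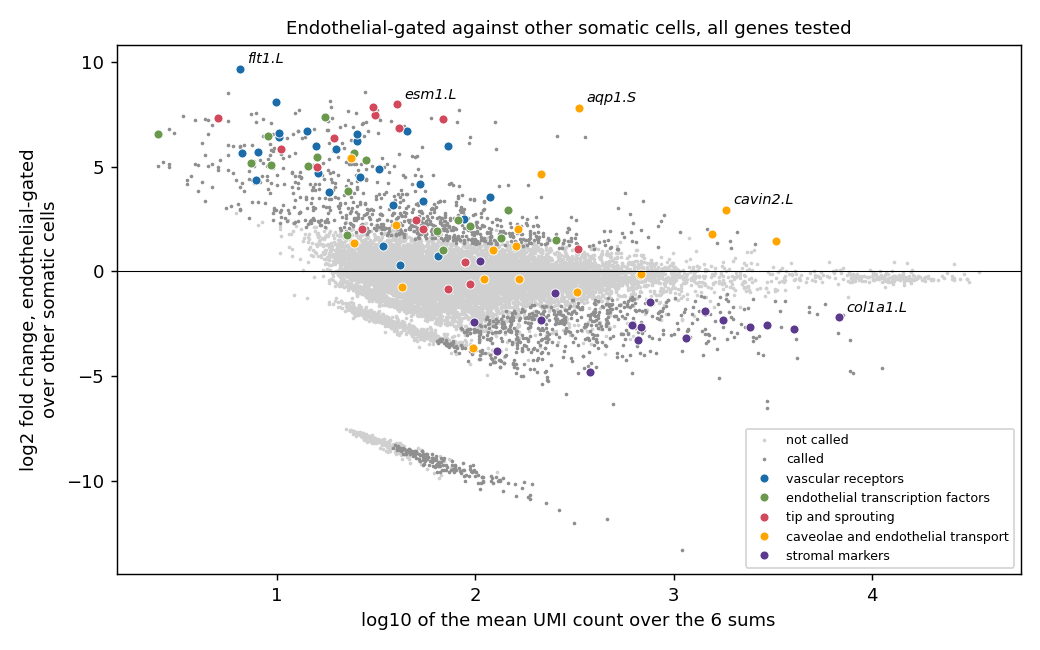
Fitted log2 fold change of endothelial-gated over other somatic cells (y axis) against log10 of the mean UMI count over the 6 sums (x axis) for the 14147 genes tested, with 5 gene lists in color. Most vascular receptors, transcription factors and sprouting genes lie above 2, stromal markers lie below 0, and the band near -10 holds genes with 0 UMIs in all 3 endothelial sums, whose fitted values are no bound.

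The 10 largest rises that met the naming rule were in genes of the vessel wall. *esm1.L*, which encodes endocan, a proteoglycan secreted by sprouting endothelium in mouse, had 159, 26 and 24 UMIs in endothelial-gated cells of ovaries 1, 2 and 3, against 23, 2 and 7 in the other somatic cells. Its level was 3.04 ± 0.456, against 0.00894 ± 0.00414 (log2 7.99 ± 0.48, adjusted p = 3.21e-08). Its homeolog *esm1.S* rose by 7.85 on the log2 scale, so both copies of this sprouting gene led the comparison. *aqp1.S*, a water channel gene, had 1357, 155 and 207 UMIs in endothelial-gated cells, against 188, 27 and 67 in the other somatic cells. That is 23.0 ± 2.31, against 0.0858 ± 0.0209 (log2 7.83 ± 0.45, adjusted p = 2.55e-08). For each of these genes the 3 endothelial levels lay far above the 3 levels of the other somatic cells. The others were *clec14a.S* (log2 7.73), *apold1.L* (7.72), an immediate-response gene of endothelium, *myct1.L* (7.67), *adgrl4.S* (7.54) and *adgrl4.L* (7.39), which encode an endothelial adhesion receptor of the G-protein-coupled family, *mmrn2.S* (7.51) and *dll4.S* (7.48), a Notch ligand of arteries and tip cells. In these 10 genes except *aqp1.S*, fewer than 3 of the other somatic sums reached the minimum of the low-count filter. The endothelial sums thus carried all but *aqp1.S* through it. All 10 kept their call in all 15 alternatives run, no low-count filter among them.

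The 5 largest falls that met the rule were in genes with 0 UMIs in all 3 endothelial sums, as had 174 of the 784 lower genes. A count of 0 allows up to 3 UMIs over the gate, so these falls are lower bounds. *anos1.L*, a secreted cell adhesion protein gene, was at least 12.4-fold lower (0 UMIs in each endothelial sum, against 765, 480 and 333). *nccrp1.L* was at least 10.7-fold lower, *fgfrl1.L*, an FGF-binding receptor-like gene, and *arhgdib.L*, a signaling regulator of blood cells, at least 8.88-fold lower, and *apoc1.L*, an apolipoprotein gene, at least 8.71-fold lower. The calls of *arhgdib.L*, *fgfrl1.L* and *nccrp1.L* were lost without ovary 1.

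Junction and adhesion genes were called in large part. Of 19 measured members of that list 16 passed the low-count filter, and 11 rose and 0 fell, with a median log2 fold change over the tested members of 5.25. In 9 of those 16, fewer than 3 of the other somatic sums reached the filter's minimum, so that the endothelial sums carried them through it. With no filter, 12 of 18 rose. *pecam1.L*, which encodes CD31 at endothelial borders, had 192, 46 and 43 UMIs in endothelial-gated cells, against 49, 6 and 21 in the other somatic cells (4.84 ± 1.32, against 0.0230 ± 0.0074, log2 7.34 ± 0.43). *cldn5.L*, a claudin of endothelial tight junctions, had 290, 71 and 93 UMIs, against 155, 66 and 86 (8.40 ± 2.56, against 0.119 ± 0.0367, log2 5.84 ± 0.39). In both, the endothelial sums were higher in 3 of 3 ovaries in spite of holding few cells. *cldn5.S*, *pecam1.S*, *esam.L*, *esam.S*, *mcam.L*, *clec14a.S*, *thsd1.L*, *mmrn2.L* and *mmrn2.S* rose as well, by 4.18 to 7.73 on the log2 scale. The junctional adhesion molecule genes *jam2* and *jam3*, which many epithelia share, gave log2 values of 0.35 to 1.66 with adjusted p from 0.11 to 0.72. *tjp1.S*, a tight junction scaffold, gave 0.93 ± 0.37 (adjusted p = 0.12).

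Receptors of the vascular growth and guidance factors rose with few exceptions. Of 32 measured, 27 were tested and 23 rose, with a median log2 of 4.90. The endothelial sums carried 19 of the 27 through the filter, and with no filter 25 of 32 rose. Among the VEGF receptors, *flt1.L* had 30, 2 and 6 UMIs in endothelial-gated cells, against a single UMI among all other somatic cells (ratio of levels 1612, exact counting interval 272 to 65311). *flt4.L*, the VEGF-C receptor of veins and lymphatics, had 49, 8 and 13 UMIs, against 27, 5 and 17 (log2 5.82 ± 0.44). The VEGF co-receptors *nrp2.L* (3.17 ± 0.48) and *nrp1.S* (2.48 ± 0.53) rose less, and the call of *nrp1.S* was lost without ovary 1. Transcripts of *flt1*, *flt4* and both neuropilins were thus found in these cells. A further VEGF receptor gene, *kdr*, was part of the rule that picked them, and the related *kdrl*, described above, was not.

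The angiopoietin receptor gene *tek*, which encodes TIE2, and its partner *tie1* rose in both copies. *tek.S* had 85, 12 and 12 UMIs in endothelial-gated cells, against 23, 2 and 17 in the other somatic cells (1.51 ± 0.177, against 0.0132 ± 0.00835, log2 6.57 ± 0.51), and *tie1.S* had 38, 6 and 8, against 6, 1 and 0 (log2 8.09 ± 0.64). *ptprb.L*, the phosphatase that acts on TIE2, rose by 5.99 ± 0.48. Guidance receptors followed, with *robo4.S* at 6.23 ± 0.47, *plxnd1.S* at 5.98 ± 0.49 and *plxnd1.L* at 4.90 ± 0.42. The lipid and peptide receptors *s1pr1.S* (5.71 ± 0.55), which binds sphingosine-1-phosphate, and *calcrl.L* (3.54 ± 0.38), the adrenomedullin receptor, also rose. Receptors of the TGF-beta family were mixed: *acvrl1.S* (4.70), *acvrl1.L* (3.79, call lost without ovary 1), *tgfbr2.L* (4.19) and *tgfbr2.S* (3.37) rose, while *bmpr2.L* and *bmpr2.S* gave 0.29 and 0.76 and were not called. The netrin receptor *unc5b.S* was at 0.46 ± 0.50.

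**Figure D3:**
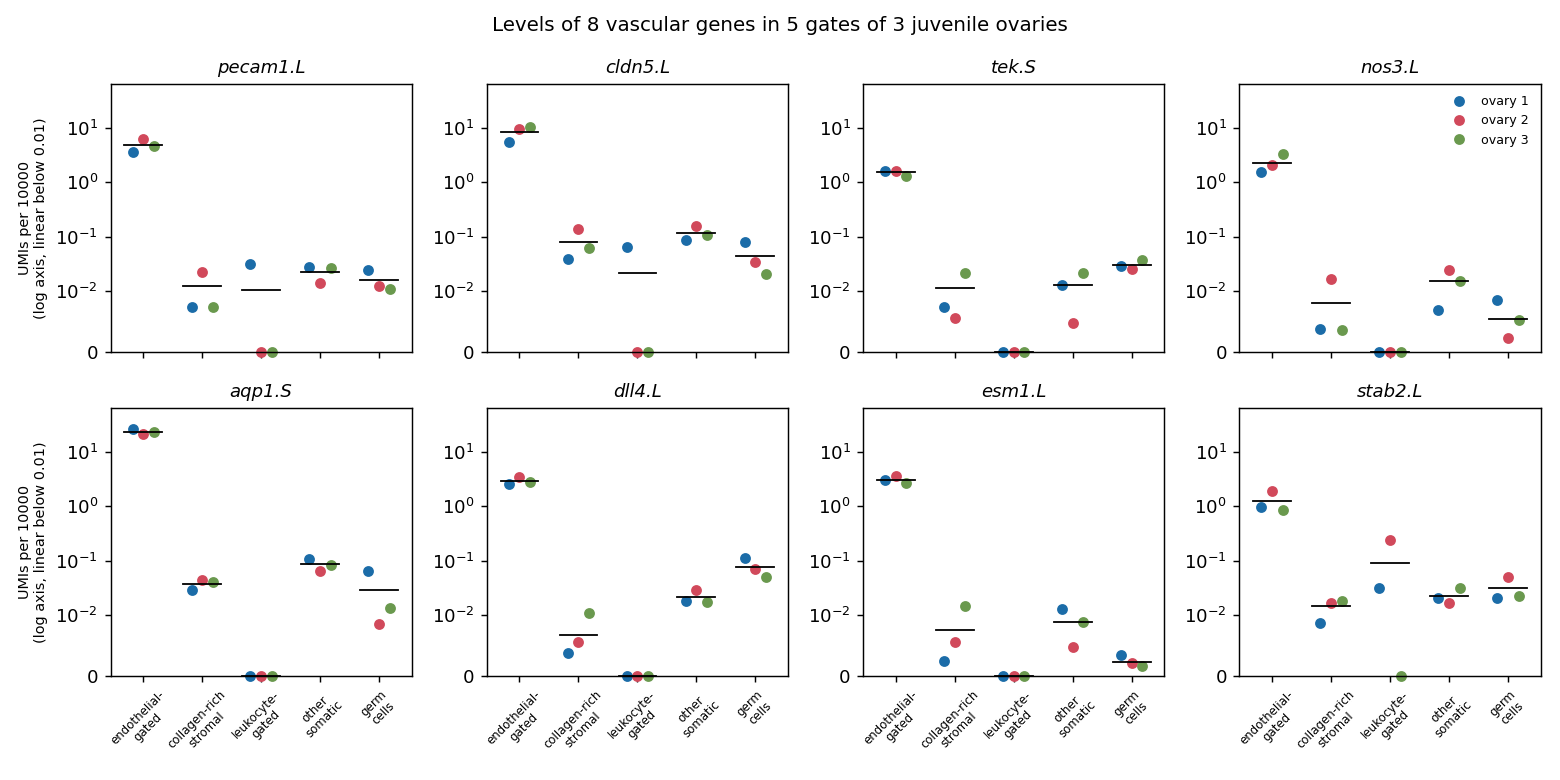
Levels of 8 vascular genes (y axis, UMIs per 10000 UMIs of the sum, logarithmic above 0.01 and linear below) in endothelial-gated cells and 4 comparison gates (x axis). Dots are the 3 ovaries and bars their means; the endothelial-gated sums lie above every other sum for each gene, and most leukocyte sums are at 0.

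Endothelial transcription factors were sparse but followed. Of 35 measured, 18 were tested, and 16 rose with a median log2 of 4.46. In 10 of the 18 the endothelial sums carried the gene through the low-count filter, and with no filter 22 of 33 rose. The count rests on ovary 1, since without it 7 of 14 tested rose. *sox7.S*, a SoxF factor, had 59, 12 and 14 UMIs in endothelial-gated cells, against 12, 3 and 5 in the other somatic cells (log2 7.37 ± 0.46), and *sox18.L*, a SoxF factor with a role in lymphatic vessels, had 7, 3 and 1, against 2, 1 and 1 (6.58 ± 0.72). The third SoxF gene was found as *sox17a* after its values were seen, with 38, 3 and 6 UMIs of *sox17a.L* in endothelial-gated cells. ETS factors, which bind most endothelial enhancers, ranged widely: *erg.L* rose by 6.47 ± 0.63, *fli1.S* by 5.46 ± 0.51, *elk3.S* by 5.31 ± 0.54 and *ets1.L* by 2.94 ± 0.39. *ets2.L*, which most cell types express, rose by 1.49 ± 0.38, a call lost without ovary 1. The homeobox gene *hhex.L* (5.67 ± 0.51), the GATA factor *gata2.S* (5.20 ± 0.60) and *mef2c.L* (2.48 ± 0.38) rose. The flow-responsive *klf2.L* had 9, 0 and 1 UMIs and log2 1.72 ± 0.67 (adjusted p = 0.11), and *klf4.L* 18, 1 and 2 UMIs and 1.02 ± 0.52 (adjusted p = 0.24).

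Intracellular regulators that link receptors to the cytoskeleton gave 16 rises among 21 tested of 24 measured, or 8 of 18 without ovary 1. The endothelial sums carried 9 of the 21 through the filter, and with no filter 16 of 24 rose and 1 fell. *she.L*, an adaptor gene, was the largest, with 82, 22 and 21 UMIs in endothelial-gated cells, against 21, 7 and 19 in the other somatic cells (log2 6.71 ± 0.44). *egfl7.L*, a secreted endothelial factor, rose by 6.54 ± 0.57. *rapgef5.L*, an exchange factor for Rap, rose by 4.87 ± 0.41, and *rasip1.S*, needed in mouse for vessel lumens, by 3.66 ± 0.40. *heg1.L* (4.93 ± 0.61) and *ccm2l.L* (4.13 ± 0.56, call lost without ovary 1), of the cerebral cavernous malformation pathway, rose, while the more widely used *ccm2.S* and *krit1.L* had 2 and 5 UMIs in all and were not called.

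Genes of sprouting tip cells were called in number. Of 19 measured, 16 were tested, 9 of them carried through the filter by the endothelial sums, and 11 rose; with no filter 12 of 19 rose. *apln.L*, which encodes the peptide apelin made by tip cells, had 259, 25 and 53 UMIs in endothelial-gated cells, against 50, 14 and 12 in the other somatic cells (4.68 ± 1.20, against 0.0259 ± 0.00961, log2 7.29 ± 0.49). *dll4.L* had 137, 25 and 26 UMIs, against 32, 12 and 14 (2.93 ± 0.414, against 0.0217 ± 0.00638, log2 6.86 ± 0.43). *angpt2.S*, which destabilizes vessels by blocking TIE2, rose by 5.83 ± 0.57 and *kcne3.S*, a channel subunit found in mouse tip cells, by 6.38 ± 0.56. At least 1 UMI of *dll4*, *esm1* or *apln* was found in 110 of 142 endothelial-gated cells (77.5%; 64.7% after thinning to 1500 UMIs), against 93 of 8475 other somatic cells (1.10%; 0.695% thinned) and 0 of 168 leukocyte-gated cells, which allows up to 1.79% of cells with such a UMI at this depth and does not limit the share that expresses these genes below capture. Median depth in leukocyte-gated cells was 1140 to 2252 UMIs. These genes were picked from the list, and the whole list was less specific. At least 1 UMI of any member was in 90.8% of endothelial-gated, 28.5% of other somatic and 37.5% of leukocyte-gated cells. *cxcr4.L* was at 0.753 in endothelial-gated cells, against 1.19 in leukocyte-gated cells, and was not called between them. *pdgfb.L*, by which endothelium recruits pericytes, had 100, 15 and 21 UMIs and log2 1.05 ± 0.45 (adjusted p = 0.15). The receptor *cxcr4* rose in both copies (2.44 for .L and 2.04 for .S), but neither held in cells with at most 1 collagen UMI, where they gave 1.36 and 1.31 (adjusted p = 0.144 and 0.149).

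In the Notch pathway *notch4.S* and some ligand genes rose and most other members did not. Of 25 genes measured and 20 tested, 5 rose and 2 fell, against 6.09% higher and 5.54% lower of all genes tested. The endothelial sums carried 4 of the 20 through the filter, and with no filter 7 of 25 rose and 2 fell. *notch4.S*, the endothelial receptor, had 45, 11 and 8 UMIs in endothelial-gated cells, against 12, 0 and 1 in the other somatic cells (log2 7.70 ± 0.63). The ligands *dll1.L* (6.03 ± 0.58) and *jag2.L* (3.11 ± 0.50) joined both *dll4* copies, and no copy of the ligand gene *jag1* was called. *notch2.L* (-1.93 ± 0.56) and *notch2.S* (-2.48 ± 0.52) fell, with 7 UMIs each in endothelial-gated cells. Both calls were lost without ovary 1, when 0 members fell, and that of *notch2.L* also without ovary 3. *notch1* was at log2 0.44 and 0.50, and the target genes *hey1.L* (0.66), *hes1.L* (-0.84), *nrarp.L* (1.17) and *nrarp.S* (0.87) were not called. *hey1.L* had 81, 3 and 6 UMIs in endothelial-gated cells, so its level came mostly from ovary 1.

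Secreted ligands went both ways. Of 59 measured and 36 tested, 10 rose and 7 fell, against 6.09% higher and 5.54% lower of all genes tested. Without ovary 1 it was 7 and 0, and without ovaries 2 and 3 in turn 3 and 4 fell. The endothelial sums carried 7 of the 36 through the filter, and with no filter 13 of 57 rose and 9 fell. *vegfc.L*, a lymphatic growth factor, had 52, 1 and 6 UMIs in endothelial-gated cells, against 10, 6 and 5 in the other somatic cells (log2 6.35 ± 0.65). *pdgfd.S* rose by 4.59 ± 0.41 and *pdgfd.L* by 1.94 ± 0.38. *vegfb.L* had 3, 2 and 1 UMIs in endothelial-gated cells (3.84 ± 0.76). *vegfa*, the ligand of *kdr*, was not called (-0.52 for .L and -1.22 for .S, with 18 and 12 UMIs in endothelial-gated cells). Of the genes that fell, *slit3.S*, a guidance ligand, was at 0.292 ± 0.134, against 0.858 ± 0.207 (log2 -1.97 ± 0.46), and *vegfd.L*, a further lymphatic growth factor gene, had 1 UMI, against 850 (ratio of levels 0.0499, counting interval 0.00126 to 0.279); both calls were lost without ovary 1.

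Genes of caveolae and of transport across the vessel wall gave 8 rises and 1 fall among 18 tested of 26 measured. The share that fell was near the 5.54% lower of all genes tested. The endothelial sums carried 2 of the 18 through the filter, and with no filter 8 of 26 rose and 1 fell. *aqp1.L* rose beside *aqp1.S*, with 370, 91 and 76 UMIs in endothelial-gated cells, against 380, 174 and 198 in the other somatic cells (9.19 ± 2.80, against 0.296 ± 0.109, log2 4.66 ± 0.39). *cavin2.L*, a coat protein of caveolae, was at 23.8 ± 4.48, against 2.65 ± 1.24 (log2 2.94 ± 0.42), and *cavin1.S* at 21.0 ± 3.51, against 6.13 ± 2.04 (log2 1.47 ± 0.34). The cavins were therefore not restricted to endothelium, and the call of *cavin1.S* was lost without ovary 3. *cav1.L* rose by 2.22 ± 0.56, a call lost without ovary 1 and without ovary 3, and *cav1.S* was at -0.19 ± 0.38. *stab2.L*, a scavenger receptor of sinusoidal and lymphatic endothelium, had 52, 14 and 8 UMIs, against 36, 7 and 25 (log2 5.44 ± 0.46). The gene that fell was *lpl.S*, a lipase that acts at the vessel wall, with 1 endothelial UMI against 581, and its call was lost without ovary 1 and with a gate of 3 UMIs. The blood-brain barrier transporter *mfsd2a* gave -0.36 and -0.37 and was not called.

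Of 11 tested genes of haemostasis and vascular tone, 2 rose and 1 fell, of 21 measured. Of all genes tested 6.09% were higher and 5.54% lower, and the list's counts are too few to tell apart from those shares. The endothelial sums carried 4 of the 11 through the filter, with both rises among them. With no filter 3 of 21 rose and 1 fell. *nos3.L*, the endothelial nitric oxide synthase, had 81, 15 and 30 UMIs in endothelial-gated cells, against 12, 10 and 12 in the other somatic cells (2.27 ± 0.896, against 0.0154 ± 0.00868, log2 7.05 ± 0.52). *vwf.L*, von Willebrand factor, had 52, 5 and 10 UMIs, against 39, 27 and 16 (log2 4.63 ± 0.54). The fall was in *ptgis.L*, prostacyclin synthase, with 2 endothelial UMIs against 953, and its call was lost without ovary 1. The coagulation regulators *plat.L* (log2 1.63, adjusted p = 0.10) and *pros1.S* (1.57, adjusted p = 0.11) were not called.

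In the basement membrane list 7 of 24 tested genes rose and 2 fell, of 28 measured, against 6.09% higher and 5.54% lower of all genes tested. The endothelial sums carried 1 of the 24 through the filter, and with no filter 8 of 28 rose and 3 fell. Type IV collagen, the network under every endothelium, rose in both chains: *col4a1.L* had 293, 67 and 136 UMIs in endothelial-gated cells (9.80 ± 4.69, against 1.51 ± 0.96, log2 2.39 ± 0.44) and *col4a2.L* 240, 48 and 83 (6.69 ± 2.27, against 1.09 ± 0.671, log2 2.33 ± 0.42). Perlecan, *hspg2.L*, rose by 1.84 ± 0.35 and nidogen *nid2.S* by 2.65 ± 0.43. The integrin genes *itga5.S* (3.68 ± 0.48) and *itga6.L* (2.85 ± 0.56, call lost without ovary 1) rose, and the list's laminin genes did not pass, from *lama5.L* at 1.18 ± 0.40 to *lamc1.L* at -1.15 ± 0.52. *sparc.L*, a collagen-binding matrix protein, fell to 4.34 ± 0.67 in endothelial-gated cells, against 15.0 ± 1.48 in the other somatic cells (log2 -2.05 ± 0.31). In cells with at most 1 collagen UMI the list gave 7 rises and 5 falls. The calls of *col4a1.L*, *col4a2.L* and *hspg2.L* were lost in cells that held both *cdh5* and *kdr* UMIs. That fit left out ovary 2, so the change of gate and the smaller sample cannot be told apart.

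Arterial, venous and lymphatic genes were present side by side. The arterial list gave 9 rises among 16 tested of 26 measured, the venous list 5 of 8 (12 measured) and the lymphatic list 8 of 10 (13 measured), with *flt4.L* and *flt4.S* counted in the last 2 lists. The endothelial sums carried 5, 5 and 7 of these tested members through the filter, and with no filter 12 of 26, 7 of 12 and 8 of 13 rose. Other lists also shared rises. Both copies of *dll4* and *cxcr4* counted as arterial and sprouting, and *dll4*, *notch4.S* and *jag2.L* as arterial and Notch genes. *cxcl12.L* was arterial and a ligand, *angpt2* lymphatic, sprouting and a ligand, and *apln* sprouting and a ligand. The counts of these lists are therefore not separate from one another. Arterial *efnb2.L* (log2 4.21 ± 0.70) and *gja4.L* (5.06 ± 0.74) rose, although *gja4.L* had 100, 2 and 8 UMIs in endothelial-gated cells and so came mostly from ovary 1. Venous *selp.L*, P-selectin, rose by 4.26 ± 0.42, while *nr2f2*, a vein-determining factor that ovarian stroma of mammals also expresses, was at 0.40 and 0.54 and not called. Lymphatic *mmrn1.L* had 115, 6 and 19 UMIs in endothelial-gated cells (log2 4.54 ± 0.49), *reln.L* rose by 4.38 ± 0.55 and *lyve1.L* by 4.15 ± 0.55 (call lost without ovary 1). Leukocyte-gated cells also held *mmrn1.L*, at 0.769 ± 0.394, against 1.68 ± 0.754 in endothelial-gated cells, which were higher in 2 of 3 ovaries. *prox1.L*, the factor that sets lymphatic fate, had 9, 1 and 2 UMIs and was at 1.06 ± 0.57 (adjusted p = 0.27). The arterial count was 4 of 14 in cells with at most 1 collagen UMI, where *cxcl12.L* gave 1.23 (adjusted p = 0.121) in place of 1.90.

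Arterial and venous genes did not divide the cells cleanly. By 6 arterial genes (*efnb2*, *dll4*, *gja4*, *gja5*, *hey1*, *hey2*) and 3 venous genes (*nr2f2*, *ephb4*, *aplnr*), 63 cells held only arterial UMIs, 19 only venous, 43 both and 17 neither. The venous genes were seen in 43.7% of endothelial-gated and 22.9% of other somatic cells, and after thinning in 19.5% and 15.2%. For the arterial genes the shares were 74.6% and 22.0%, and after thinning 60.9% and 11.4%. At equal depth the venous genes thus hardly set endothelial-gated cells apart. Venous-only names the UMIs held, and whether these cells came from veins was not tested. The venous-only cells numbered 12, 3 and 4 in the ovaries, too few for sums to be tested. As a description over pooled cells, *aqp1.S* was at 33.5 UMIs per 10000 in arterial-only cells, against 6.79 in venous-only cells, and *aqp1.L* the other way round, at 7.81 against 17.5. *cldn5.L* was at 8.28 against 1.91, *esm1.L* at 4.22 against 0, and *vwf.L* at 0.473 against 4.53. *selp.L*, also of the venous list, ran against *vwf.L*, at 1.26 (32 UMIs) in arterial-only against 0.238 (2 UMIs) in venous-only cells. In ovary 3 *selp.L* was at 0.239 against 0.644. The arterial-only cells also held less of the lymphatic genes, with *lyve1.L* at 0.197 against 1.67, *stab2.L* at 0.710 against 3.33 and *prox1.L* at 0 against 0.715, so this contrast overlaps the split of cells by those genes described next. The 2 *aqp1* homeologs thus ran in opposite directions between these cells in ovaries 1 and 3, where *aqp1.L* was at 5.88 and 7.17 in arterial-only cells, against 21.8 and 15.4 in venous-only cells. In ovary 2, with 3 venous-only cells, *aqp1.L* was at 20.6 against 7.26.

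Cells were also split by *mmrn1*, *stab2*, *lyve1*, *reln* and *prox1* together. At least 2 UMIs of these 5 genes were held by 44 cells, 34, 4 and 6 by ovary, and at least 2 UMIs of *dll4*, *esm1* and *apln* by 98 cells, 67, 10 and 21 by ovary. Both sets were found in 20 cells and neither in 20. The sprouting genes were present in 45.5% of the 44 cells, against 79.6% of the other 98, and in each ovary they were held by a smaller share of the first. Median depth was 4144.5, 4981 and 3075 UMIs in the 44 cells, against 4454, 3195 and 2530.5 in the rest. Since the cells were chosen on these counts, the split is a description and has no test.

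**Figure D4:**
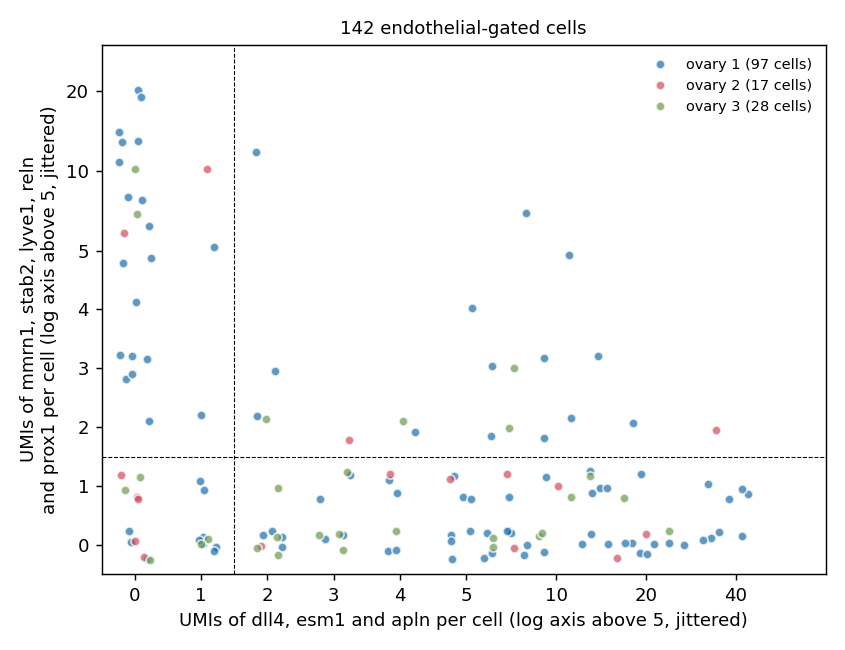
Each dot is 1 of the 142 endothelial-gated cells, placed by its UMIs of *dll4*, *esm1* and *apln* (x axis) and of *mmrn1*, *stab2*, *lyve1*, *reln* and *prox1* (y axis), both logarithmic above 5 and slightly jittered, colored by ovary. Dashed lines mark the 2-UMI limits; 24 cells hold only the second set, 78 only the first, 20 both and 20 neither.

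Some genes outside the split set followed it, and others of the venous and lymphatic lists did not. The 44 cells had 60 *vwf.L* UMIs, a level of 2.91, against 7 UMIs and 0.143 in the other 98 cells. *flt4.L* was at 1.89 against 0.631 and *flt4.S* at 0.680 against 0.0407, and the VEGF-C receptor was thus higher on both copies. Of the lymphatic list, *angpt2.L* (0.631 against 0.550) and *angpt2.S* (0.583 against 0.468) differed little. Venous *selp.L* was at 0.826 against 0.916. The remaining genes of this paragraph were picked after their values were seen: *hapln3.S*, a hyaluronan-linking matrix gene, had 51 UMIs against 1, *xpnpep2.L*, an aminopeptidase gene, 96 against 15, *akap12.L*, a kinase scaffold gene, 165 against 41, and *cfd.L*, complement factor D, 425 against 174. *mrc1.S*, a mannose receptor gene of sinusoids and macrophages, was at 2.82 against 0.815. *esm1.L* (1.17 against 3.77), *apln.L* (2.04 against 6.01) and *cldn5.S* (2.38 against 5.72) ran the other way in the pooled cells. For *apln.L* this held in ovaries 1 (1.23 against 6.48) and 3 (3.72 against 6.40), and in ovary 2, with 4 cells in the split set, it was 6.48 against 2.11. Without the 44 cells *vwf.L* stood at log2 2.01 over the other somatic cells (adjusted p = 0.139).

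Collagen RNA was found in part of the gate and moved with genes listed for mural cells, the pericytes and smooth muscle that wrap vessels. Several of these genes were also present in collagen-rich stromal cells, as given in the next paragraph. At least 2 UMIs of *col1a1*, *col1a2* and *col3a1* were held by 38 of the 142 cells, 24, 5 and 9 by ovary. Of 129 UMIs of *rgs5*, a pericyte marker, 12 lay in the other 104 cells, and 27 of the 32 cells with *rgs5* were among the 38. *acta2.S*, smooth muscle actin, had 62 UMIs in the 38 cells, against 7 in the 104, and *myh11.L*, smooth muscle myosin, 45 against 4. The same 38 cells had endothelial RNA, with a panel level of 19.7, 28.8 and 34.0 by ovary, against 28.8, 37.9 and 37.9 in the 104 cells. They were deeper, with medians of 6905, 4593 and 4691 UMIs against 3701, 2930.5 and 2370. A doublet score placed 5 of the 38 and 6 of the 104 in the top 5% of their library, and the part of doublets in this pattern was not tested. In ovary 2 a single cell held 87 collagen UMIs, 81.3% of that ovary's.

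In the mural list 2 of 14 tested genes were higher and 2 lower, of 17 measured. Of all genes tested 6.09% were higher and 5.54% lower, and the list's counts are too few to tell apart from those shares. The endothelial sums carried 2 of the 14 through the filter, and with no filter 2 of 17 were higher and 2 lower. *rgs5.S* had 77, 2 and 13 UMIs in endothelial-gated cells, against 152, 7 and 8 in the other somatic cells (log2 4.61 ± 0.73), and *rgs5.L* was at 4.44 ± 0.73. In cells with at most 1 collagen UMI *rgs5.S* was at 1.94 (adjusted p = 0.194) and *rgs5.L* fell below the low-count filter, so that 0 of 11 tested rose and 5 fell. *pdgfrb.S*, the pericyte receptor of PDGF-B, was at 0.05 ± 0.43. The summed level of the list was 3.66 to 7.73 in endothelial-gated cells, against 6.54 to 7.88 in the collagen-rich stromal cells defined below. Against those stromal cells 2 of 11 tested genes were higher, both *rgs5* copies, and 4 lower, both copies of *acta2* and *tagln*. Of all genes tested there 7.17% were higher and 4.5% lower. Actin and myosin RNA beside collagen is thus not particular to mural cells here.

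Markers of other cell types were mostly low. Of 14 leukocyte markers, 11 were at 0 in endothelial-gated cells, and their summed level was 0 to 0.245, against 1.53 to 2.85 in the other somatic cells and 25.7 to 40.7 in leukocyte-gated cells. Of 5 tested, 4 fell and 0 rose, in a comparison where the gate itself asks for 0 *ptprc* UMIs and the other somatic cells keep their leukocytes. Against other somatic cells with 0 *ptprc* UMIs the call of *lcp1.S* was lost. The red blood cell list stood at 0.406 to 2.82, against 31.2 to 79.8, with 4 of 6 tested genes lower and 1 higher, and *hba1.L* at log2 -4.74 ± 0.65. In the stromal list 13 of 18 tested genes fell and 0 rose (8 fell without ovary 1). With no low-count filter 15 of 20 fell and 2 rose. The summed level of the stromal list was 6.30 to 20.9, against 48.0 to 61.2 in the other somatic cells. *col1a1.L* had 56, 58 and 55 UMIs in endothelial-gated cells, so that its share was higher in the small sums of ovaries 2 and 3 (4.97 ± 3.52, against 16.4 ± 5.96, log2 -2.18 ± 0.48). Of the follicle lineage list 7 of 12 fell (2 without ovary 1), among them *inha.L*, an inhibin subunit (-1.93 ± 0.44), and of the epithelial list 7 of 9, among them *krt7.L* (-5.07 ± 0.76). Of the thrombocyte list only the 2 copies of *thbs1* were tested, and they fell by 2.57 and 2.24 on the log2 scale. The list's summed level was 3.09 in collagen-rich stromal cells, 2.63 in the other somatic cells and 0.199 in leukocyte-gated cells. These falls are therefore no measure of thrombocytes. Of 8 tested germ cell markers 4 fell, and 0 without ovary 1.

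In the main fit cell cycle genes were called about as seldom as all genes tested, of which 6.09% were higher and 5.54% lower. Their summed level was 7.64, 8.81 and 12.7 UMIs per 10000 in endothelial-gated cells of ovaries 1, 2 and 3, against 13.5, 8.34 and 19.9 in the other somatic cells, lower in 2 of 3 ovaries. The median log2 over the tested members was -0.81, against -0.28 over all genes tested. Of 22 tested cell cycle genes 0 rose and 1 fell, *ccnb1.S* (log2 -2.79 ± 0.77), too few to tell apart from those shares. With the ovary as a block 8 fell, and 1381 of all 14147 genes tested. With no low-count filter 7 of 24 fell and 0 rose, and 1459 of all 33114 genes tested fell. In both of these fits the list fell more often than all genes tested. *top2a.L* had 51, 10 and 19 UMIs (0.30 ± 0.34), *pcna.L* 95, 22 and 17 (0.14 ± 0.33) and *mki67.S* 28, 7 and 11 (0.18 ± 0.37). At least 1 UMI of *mki67* or *top2a* was seen in 45.1% of endothelial-gated cells, against 32.4% of the other somatic cells, and after thinning to 1500 UMIs in 29.3% against 23.8%. In leukocyte-gated cells the thinned share was 22.9%, and the gap between gates was smaller at equal depth.

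Thyroid hormone drives metamorphosis, and genes of its axis were examined for that reason. *dio2.S*, the enzyme that activates the hormone, had 1 UMI in endothelial-gated cells, against 645 in the other somatic cells (ratio of levels 0.0658, counting interval 0.00166 to 0.368). It fell by the test, a call lost without ovary 1 and without ovary 3. The receptors *thra.L* (log2 0.40 ± 0.53) and *thrb.S* (-0.18 ± 0.59) had 14 and 12 UMIs in endothelial-gated cells and were not called.

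Collagen-rich stromal cells were set against endothelial-gated cells as the tissue that vessels run through. They were 3867 somatic cells with at least 5 UMIs of *col1a1*, *col1a2* and *col3a1* and 0 of *cdh5*, *kdr* and *ptprc*. Of 10452 genes tested, 749 were higher (7.17%) and 470 lower (4.5%) in endothelial-gated cells; without ovary 1 the counts were 206 and 73, without ovary 3 238 were lower, and with the ovary as a block 1101 and 1195. *apold1.L* had 351, 38 and 35 UMIs in endothelial-gated cells, against 3, 3 and 2 in stromal cells (log2 9.15 ± 0.57). *aqp1.S* followed at 9.01 ± 0.41, *adgrl4.L* at 9.00 ± 0.49, *prdm1.L*, a transcriptional repressor gene, at 8.69 ± 0.56, *mmrn1.L* at 8.54 ± 0.69, *esm1.L* at 8.51 ± 0.53, *dll4.L* at 8.48 ± 0.45, *apln.L* at 8.44 ± 0.63 and *pecam1.L* at 8.42 ± 0.47. *myct1.L* had 118 UMIs, against 2 in stromal cells (ratio of levels 1060). The endothelial sums carried each of these higher genes through the low-count filter. The largest falls were in genes with 0 UMIs in endothelial-gated cells: *c1qtnf12.L* (0 UMIs, against 931, 35 and 110 in stromal cells), *adamts19.L* at least 13.9-fold, *col6a6.L* at least 13.1-fold, *anos1.L* at least 10.8-fold and *nccrp1.L* at least 9.46-fold lower. These 5 calls were lost without ovary 1. Endothelial lists behaved here much as against all other somatic cells, with 11 of 15 junction genes, 22 of 27 receptors and 15 of 16 transcription factors higher. Of these tested members 12, 23 and 10 passed the filter through the endothelial sums, and with no filter 12 of 18, 24 of 32 and 21 of 30 were higher. The stroma is itself part of those other cells.

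Leukocytes, which travel in vessels, were the last comparison, and their 168 gated cells formed the shallowest sums. Of 1026 genes tested, 189 were higher (18.4%) and 122 lower (11.9%) in endothelial-gated cells. Without ovaries 1, 2 and 3 in turn, 113, 510 and 480 were higher and 105, 295 and 284 lower. The genes tested in those fits numbered 814, 2911 and 2637, so the counts moved largely with the low-count filter. *aqp1.S* was at least 327-fold higher, since leukocyte-gated cells had 0 UMIs, *aqp1.L* at least 102-fold, *prx.L*, a periaxin gene, at least 72.5-fold, *apln.L* at least 64.2-fold, *ptprb.L* at least 53.9-fold, *esm1.L* at least 39.8-fold, *dll4.L* at least 35.8-fold, *mcam.L* at least 30.7-fold and *trim47.L* at least 25.5-fold. *pmp2.L*, a fatty acid-binding protein gene, had 487, 209 and 281 UMIs in endothelial-gated cells, against 0, 1 and 0. The endothelial sums carried each of these higher genes through the low-count filter. The largest falls were in genes of blood cells with 0 UMIs in endothelial-gated cells: *arhgdib.L* was at least 204-fold lower, *lcp1.L*, an actin bundler of leukocytes, at least 163-fold, *apoc1.L* at least 122-fold, *hcls1.S*, a signaling adaptor of blood cells, at least 104-fold, and *c1qa.L*, a complement gene of macrophages, at least 90.4-fold.

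Both homeologs of many vascular genes could be compared within the same cells. The 3′ kit counts 1 end of each RNA, and reads that match near-identical copies may have been assigned unevenly by the counting, so the .L share of a pair is a share of counted UMIs. Of 194 pairs measured, 77 had at least 50 UMIs in endothelial-gated cells. The .L copy held over 80% of the UMIs in 22 pairs, under 20% in 3, and 20 to 80% in 52, with a median of 58.8%. For *col4a1* and *col4a2* all 496 and 371 endothelial UMIs were on .L, while *dll4* (54.7%), *esm1* (56.8%) and *cldn5* (57.9%) used both copies.

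The share differed between cell types for several pairs, as a description with no test. For *aqp1*, .L held 23.8% in endothelial-gated cells (2256 UMIs; 21.4, 37.0 and 26.9% by ovary), against 72.7% in the other somatic cells (1034 UMIs; 66.9, 86.6 and 74.7%). *mmrn2* was at 45.1% against 91.0%, *tek* at 36.6% against 68.9% and *sox7* at 23.4% against 60.0%, so that .S held more of the UMIs in endothelium than outside it. The reverse held for *cavin2* (94.2% against 69.6%), *mcam* (95.8% against 60.4%) and *rapgef5* (100% of 136 UMIs against 44.5% of 384). For the rule's own gene *kdr*, .L held 76.0% of 104 UMIs in endothelial-gated cells, against 21.0% of 649 in germ cells, and for *cdh5* 37.4% of 455, against 86.2% of 65 in germ cells.

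**Figure D5:**
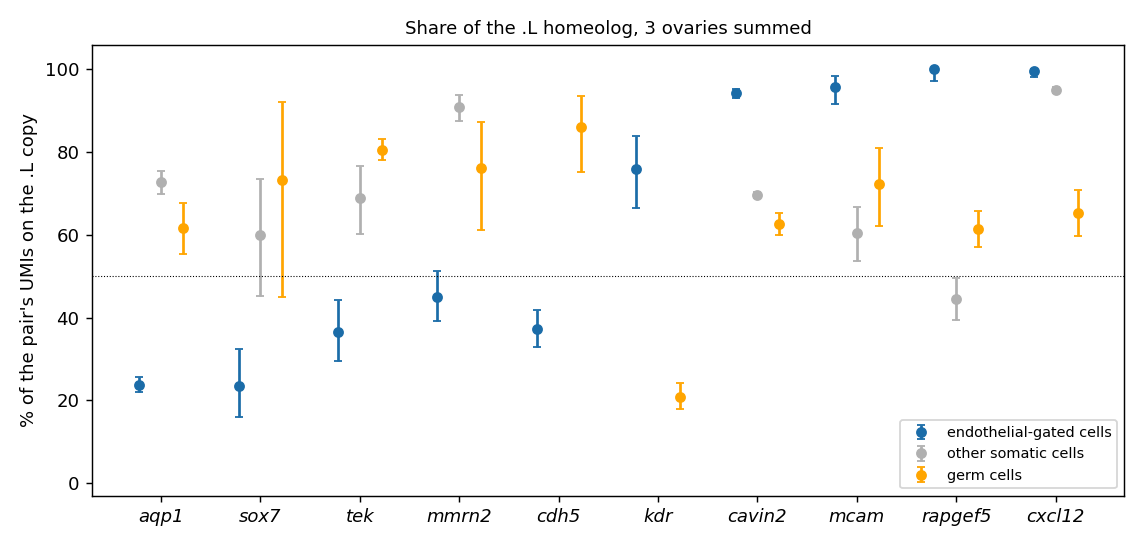
Share of a homeolog pair's UMIs on the .L copy (y axis, %) for 10 vascular genes (x axis) in endothelial-gated cells, other somatic cells and germ cells, 3 ovaries summed, with exact binomial 95% intervals that cover counting error only. Other somatic cells have no point for *cdh5* and *kdr*, which they hold at 0 by construction; *aqp1* stands at 23.8% in endothelial-gated cells and 72.7% in other somatic cells.

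Across 15 sums (5 gates in 3 ovaries), the genes whose level ran most like that of *cdh5* and *kdr* together were *fgd5.L* (Pearson r = 0.9996), an exchange factor gene of endothelium, *mcam.L*, *gngt1.L*, *robo4.S*, *sox7.S*, *kank3.L*, *shank3.S*, *adgrl4.L*, *flt4.L* and *cldn5.L* (0.994). The *cdh5* and *kdr* levels are those the gate used, at 2 or more UMIs per cell in the endothelial sums. In the other somatic, stromal and leukocyte sums they are at 0 by construction. The r values thus describe that contrast, and the gates share the libraries. Within the endothelial sums the ovaries differed for a few genes, picked after their values were seen. *fos.L*, an early stress and growth response gene, was at 5.55, 0.406 and 0.980 UMIs per 10000 in ovaries 1, 2 and 3 in endothelial-gated cells, and at 8.05, 3.01 and 2.39 in the other somatic cells, where ovary 1 was also highest. *chn1.L*, a Rac regulator gene, was at 0.471, 4.34 and 5.66, against 0.219, 0.711 and 0.381. With 1 library per ovary, animal, stage and handling cannot be told apart for such genes.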

How the data were processed

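The labels name 3 individual ovaries, each 1 library of the 10x Chromium GEM-X 3′ kit. The deposited files hold UMI counts per gene and barcode as whole numbers, made by the authors with Cell Ranger (version 8.0.1 in the submitters' processing notes) with no normalization. The genome build is not given in the sources used here, so no coordinates or sequences are printed. Features with no name, 0.363 to 0.443% of the UMIs, were left out. Library totals were 34060121 to 54585110 UMIs. Genes were matched by symbol, with .L and .S copies kept apart. List symbols that were not matched, such as *cd34*, *emcn* and *eng*, were not analysed here. Calls over the whole thyroid hormone list are not reported here.

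Cells were gated as described in the results. The members and the 23 gene lists were chosen with earlier results of these data known. Raw UMIs were summed per ovary and gate, gates of at least 10 cells per ovary were compared with edgeR 4.0.16 in R 4.3.3 (TMM, filterByExpr, glmQLFit and glmQLFTest, two-sided, Benjamini-Hochberg over all genes tested, threshold 0.05), and genes that defined a gate stayed in the library sizes and out of the test. The SE is the fitted log2 fold change over the square root of the F statistic. The named genes were all list members and, per comparison, the 10 largest rises and 5 largest falls among called genes with a mean of at least 20 counts that changed the same way in 3 of 3 ovaries, leaving out symbols that start with LOC, XB or MGC. Genes outside this rule are said to be so.

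Sums of 1 ovary come from the same animal. Their deviations from the group means correlated by 0.178 to 0.244 in the main comparison, 0.157 to 0.261 against stroma and 0.224 to 0.272 against leukocytes, so the ovaries pair the sums. The main fits did not use this pairing, and with the ovary as a block more genes were called in each comparison. A gene given as not called was therefore not called in an unpaired fit. Scrublet in scanpy 1.11.5 called 0.112 to 0.873% of cells doublets and 0 endothelial-gated cells. Its rate in ovary 2 shows that it did not work there, so no cell was removed and the top 5% of scores were left out as an alternative. Thinned shares used 1500 UMIs per cell. Tested on simulated data for the main comparison, with 13340 genes, log2 changes of 1, 2 and 3 were called in 5.08, 63.2 and 90.4% of genes, with 7 false calls. A change of 1 was called in 8.06% against stroma and 27.3% against leukocytes. The simulation gave every gene the same dispersion, had no pairing by ovary and changed only genes over a minimum expected count. Its rates may therefore differ from those in the data. Intervals are exact (Clopper-Pearson, 95%), and they and the floor of 3 counts cover counting error only. Scripts ran in Python 3.11.15 with scipy 1.17.1, numpy 2.4.6 and pandas 2.3.3. Alternatives were DESeq2 1.42.0, no low-count filter, the ovary as a block, leaving out each ovary, other gates and cell limits, and thinned sums. The p-values measure the spread between these 3 ovaries.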

Additional observations from a re-analysis of the deposited data

Results flagged for a closer look

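UMIs of *cdh5* and *kdr* were also found in cells that the comparisons did not use. Among cells over the mitochondrial limit, 11 held at least 2 such UMIs with 0 of *ptprc* (0, 8 and 3 by ovary), and 7 of the 11 had at least 2 UMIs of the 6-gene endothelial panel (63.6%).

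Among germ cells, 76 held at least 2 UMIs of *cdh5* and *kdr* (13, 60 and 3 by ovary), and 5 of the 76 had at least 2 panel UMIs (6.58%), against 120 of 142 endothelial-gated cells (84.5%). Most of the germ cell UMIs were of *kdr.S*, with 47, 374 and 92 by ovary, a copy that had 16, 5 and 4 UMIs in endothelial-gated cells. The germ cells with such UMIs in ovary 2 had a median depth of 10025.5 UMIs, against 5831 in all germ cells there.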

How the results depend on the processing

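Counts of called genes moved with the ovaries, the low-count filter and depth. Leaving out 1 ovary gave 301 to 971 higher and 139 to 884 lower genes against the other somatic cells, 206 to 656 and 73 to 325 against stroma, and 113 to 510 and 105 to 295 against leukocytes. The lowest count was without ovary 1 each time. The genes tested against leukocytes in these fits ranged from 814 to 2911, against 1026 in the main fit. With sums thinned to equal depth, 168 were higher and 80 lower, then 161 and 68, then 73 and 51, where far fewer genes were tested. With no low-count filter, 1459 and 1100 were lower against the first 2 and 819 higher and 617 lower against leukocytes, of 33114, 29674 and 22138 genes tested. The ovary as a replicate block gave 1381 and 1195 lower against the first 2 and removed no call from the list members and other named genes called without it (180, 152 and 48 kept), while members not called without it gained calls, as in the cell cycle list. A gate of 3 UMIs gave 108 higher and 74 lower of 633 tested against leukocytes. A gate of 1 *cdh5* and 1 *kdr* UMI, which left out ovary 2 with 9 cells, gave 463 higher against stroma and 420 higher and 275 lower against leukocytes. The genes tested there were 11629 and 2588. DESeq2 gave 865 and 690, 734 and 466, and 158 and 107. Against the other somatic cells, 3502 genes had an unadjusted p under 0.05. None of the named genes reversed in any alternative run, and 104 of 163 kept their call without ovary 1. The cause was not tested.

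The share of endothelial-gated cells was 3.52, 3.40 and 1.84% by ovary with at least 1 UMI of *cdh5* and *kdr*, 1.37% in ovary 1 and 0.452% in ovary 3 with at least 3, and 0.921% in ovary 1 after thinning. Alternatives with at most 1 collagen and 1 red blood cell UMI (685 higher and 838 lower), or without the cells with 2 or more UMIs of *mmrn1*, *stab2*, *lyve1*, *reln* and *prox1* (671 and 656), were chosen after seeing the data. Arterial-only and venous-only cells were too few for any comparison or its alternatives. In the simulated data a log2 change of 1 was called in 5.08% of changed genes in the main comparison and 27.3% against leukocytes. A count of 0 UMIs in the gate allows up to 3.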
